A study of Mus musculus with 4 samples.

Results

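Kininogen 1 and kininogen 2 (*Kng1*, *Kng2*), haptoglobin (*Hp*), complement components C3 and C4b (*C3*, *C4b*), lipocalin 2 (*Lcn2*) and the C1 inhibitor (*Serping1*) are 7 of the 53703 features counted in 4 droplet-based single-cell RNA-seq libraries of mouse long bone. The 7 genes were matched by symbol. They were chosen with their levels in Lats2iECKO mutants and controls in view, in reticular, stromal, endothelial and chondrocyte cells. In those 4 classes their values are therefore described without a test. Tests of the members were made only in osteoblasts, smooth muscle cells and fibroblasts.

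The libraries were made of cells from the metaphyses of femora and tibiae at 12 weeks of age, 2 from Lats2iECKO mutants and 2 from controls. Mutants carried floxed *Lats2* and the tamoxifen-inducible Cdh5(PAC)-CreERT2 transgene, whose promoter is active in endothelial cells. Controls were Cre-negative littermates that also received tamoxifen according to the study's methods, although their label reads untreated. Mice of the study were kept on a C57BL/6 background, and blood lineage cells, CD45+ and CD117+ cells had been depleted with beads. The study calls the 2 libraries of a group biological replicates, and the number of animals behind each library is not given in the sources used here.

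Kininogens are plasma proteins from which kallikreins release kinins, short peptides that widen vessels and raise their permeability. Haptoglobin binds free hemoglobin, C3 and C4b are cleaved in the complement cascade, the C1 inhibitor blocks C1 proteases and plasma kallikrein, and lipocalin 2 binds iron-carrying siderophores. In the liver, transcription of such acute-phase genes responds to interleukin 6 and interleukin 1 through STAT3, C/EBP and NF-kB factors. Reticular cells of the marrow, also called CXCL12-abundant reticular (CAR) or *Lepr*+ stromal cells, surround sinusoids and provide CXCL12 and stem cell factor to blood cells.

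In GRCm39, *Kng1* lies on the plus strand at chr16:22876615-22900840 and *Kng2* on the minus strand at chr16:22804602-22848232. *Hp* spans chr8:110301759-110305804, *C3* chr17:57510964-57535155 and *C4b* chr17:34947354-34962912. *Lcn2* spans chr2:32274645-32278264 and *Serping1* chr2:84595705-84620873. These 5 genes are on the minus strand. The identifiers of all 7 in the files matched this annotation, whose release is newer than the one used for counting. *Kng1* and *Kng2* are close paralogs, and reads that fit several genes had been shared among them, so only 59.1% to 63.5% of the values of *Kng1* above 0 and 62.2% to 67.6% of those of *Kng2* were whole numbers. The division between the 2 genes is therefore uncertain, and their sum is given beside them. For *C4b*, which has the paralog *C4a*, 91.0% to 92.0% of values were whole, and for the others 99.9% to 100%.

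RefSeq promoters were found for 3 members. The bases before the gene start are shown 5′ to 3′ on the gene's strand because the factors of the acute-phase response, given further on, act at such regions, and capitals mark the C/EBP-like motif TTGCNNAA on either strand. They lie in GRCm38.p6 at chr16:23029102-23029351 (*Kng2*), chr17:57228137-57228386 (*C3*) and chr2:32387740-32387989 (*Lcn2*), all on the minus strand.
Kng2: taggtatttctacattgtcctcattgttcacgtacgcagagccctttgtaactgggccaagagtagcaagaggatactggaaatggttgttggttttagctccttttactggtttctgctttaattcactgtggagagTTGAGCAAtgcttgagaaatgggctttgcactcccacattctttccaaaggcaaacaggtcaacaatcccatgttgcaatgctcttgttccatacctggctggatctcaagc
C3: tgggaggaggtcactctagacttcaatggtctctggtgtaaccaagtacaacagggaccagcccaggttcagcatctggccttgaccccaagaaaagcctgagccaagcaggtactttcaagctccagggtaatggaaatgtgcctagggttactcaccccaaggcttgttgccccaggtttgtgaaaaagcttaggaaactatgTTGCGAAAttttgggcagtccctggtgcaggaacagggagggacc
Lcn2: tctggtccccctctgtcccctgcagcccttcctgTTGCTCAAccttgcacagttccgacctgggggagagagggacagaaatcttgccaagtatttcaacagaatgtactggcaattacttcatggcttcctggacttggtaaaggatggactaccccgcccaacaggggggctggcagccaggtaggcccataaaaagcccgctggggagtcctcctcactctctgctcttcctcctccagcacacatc

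Motifs were searched on both strands in the 300 bases from 250 before to 50 after the start, with 8 patterns in all. TTGCNNAA was found in 3 of 3 member promoters and in 10.8% of the 32851 promoters of the table. Its longer form ATTGCNNAA was found in *Kng2* only (2.18% of all promoters), and the looser pattern TTNNGNAA, which every TTGCNNAA match also fits, in 3 of 3 (40.7%). The STAT motif TTCNNNGAA and its narrower form TTCCNGGAA were in none of the 3 (8.3% and 1.15% of all promoters). A loose NF-kB-like pattern was in *C3* and *Lcn2* (50.8%), and 2 narrower NF-kB forms were in none (8.52% and 1.75%). The patterns were chosen after the expression values had been seen, and a match is a description of the sequence only.

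The libraries held 69636600 to 85899079 UMIs, and 5119 and 5887 barcodes of mutants and 6813 and 6780 of controls were kept. Cells were assigned to classes by marker genes that did not include the members. Cre-ERT2 transcripts checked the labels. They reached 53.6 and 49.0 CPM (a gene's counts scaled to 1000000 counts of the class in a library) in endothelial cells of mutants, and 0.676 and 0.878 in those of controls. In the same cells *Lats2* reached 91.6 and 97.7 CPM in mutants, below 133 and 123 in controls. It was not lower in endothelial cells alone. *Lats2* was also lower without overlap in reticular cells (75.3 and 85.4 against 95.6 and 95.5 CPM) and in stromal, chondrocyte, smooth muscle, leukocyte and erythroid cells. It overlapped in osteoblasts and fibroblasts. Pairs of libraries shared 6 to 16 barcodes, where 4.44 to 6.8 were to be expected of independent draws. Reticular cells were 11.8% and 12.8% of the barcodes of mutants and 26.5% and 25.4% of those of controls (604, 755, 1804 and 1723 cells). They are shares of the dissociated and depleted cells, not of the tissue.

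*Kng1*, *Kng2* and *Hp* marked the reticular class. Though no member was used to assign cells, *Hp*, *Kng2* and *Kng1* ranked 2, 3 and 5 among the genes highest in reticular cells relative to the other classes, 65.4-, 45.7- and 42.2-fold. Reticular cells held 92.5% to 96.3% of all *Kng1* counts of kept barcodes, 92.0% to 94.5% of *Kng2* and 90.8% to 93.0% of *Hp*. The share of *C3* was 52.3% and 50.3% in mutants against 80.7% and 74.6% in controls, for *Serping1* 58.0% and 58.1% against 82.1% and 79.2%, and for *C4b* 20.6% and 22.9% against 43.7% and 42.3%. Such shares depend on the number of cells in each class as well as on levels, and reticular cells were a smaller part of the barcodes in mutants. *Lcn2* was not a reticular gene, with 2.01% to 7.32% of its counts in these cells. The plot of levels by class shows the same split.

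**Figure D1:**
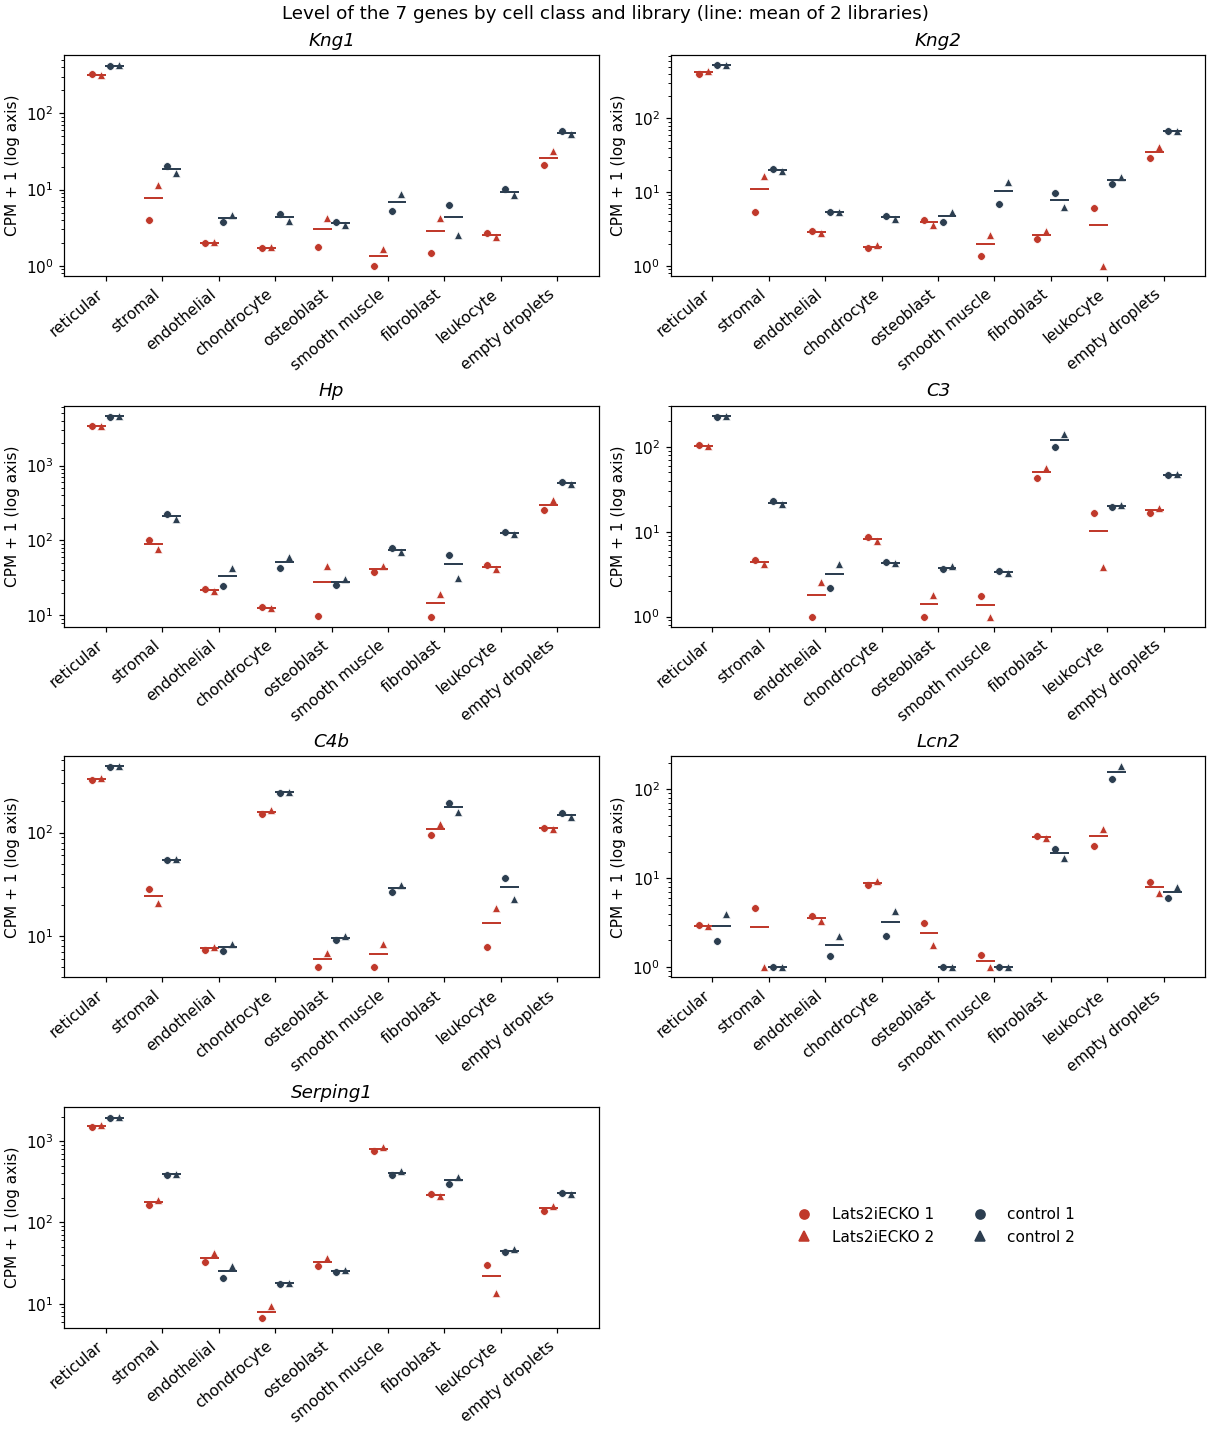
Level of each of the 7 genes (CPM + 1, log axis) in the cell classes and in empty droplets, with a point for each library (red, Lats2iECKO; dark, control; circles and triangles, replicates 1 and 2) and a line at the mean of 2 libraries. *Kng1*, *Kng2* and *Hp* were highest in reticular cells, C4b was also high in chondrocytes and fibroblasts, Serping1 in smooth muscle cells and fibroblasts, and Lcn2 in leukocytes and fibroblasts.

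In reticular cells, *Hp* reached 3430 and 3390 CPM in mutants and 4423 and 4642 in controls. *Serping1* stood at 1485 and 1572 against 1928 and 1974 CPM. The summed kininogens stood at 728 and 751 against 941 and 959 CPM. In all 3, both libraries of mutants lay below both of controls, 1.28- to 1.33-fold lower by the means. *C4b* stood at 320 and 339 CPM in mutants and 434 and 436 in controls. *C3*, the component on which the complement pathways converge, differed most, with 103 and 102 CPM in mutants and 223 and 232 in controls (102.6 ± 0.488 and 227 ± 6.07, SD, n = 2 each), 2.22-fold lower. *Lcn2* stayed at 0.967 to 2.92 CPM in the 4 libraries and overlapped. Without overlap, 6 of the 7 members were lower in mutants, where 35.6% of the 19667 features with at least 10 counts in the class did so. The choice of the members used this contrast, and nothing is read from that count.

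The lower level of 5 of these 6 genes depended on which cells were counted as reticular. With a stricter marker gate (479 and 591 cells of mutants, 1685 and 1636 of controls), *Hp* was at 4503 and 4535 CPM in mutants against 4685 and 4882 in controls. *Serping1* was 1903 and 2009 against 2014 and 2048 CPM there. The log2 fold changes of *Kng1*, *Kng2*, *Hp*, *C4b* and *Serping1*, mutant over control, were -0.33, -0.25, -0.33, -0.32 and -0.27 with the gate and -0.03, 0.05, -0.03, -0.01 and -0.0048 with the stricter one. With clusters named by the same markers they were 0.08, 0.17, 0.09, 0.11 and 0.10, so the direction turned for all 5. *C3* kept its direction in each case, at -1.07, -0.74 and -0.61. In the clusters *C3* stood at 153 and 151 CPM in mutants and 232 and 244 in controls, 1.56-fold lower.

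**Figure D2:**
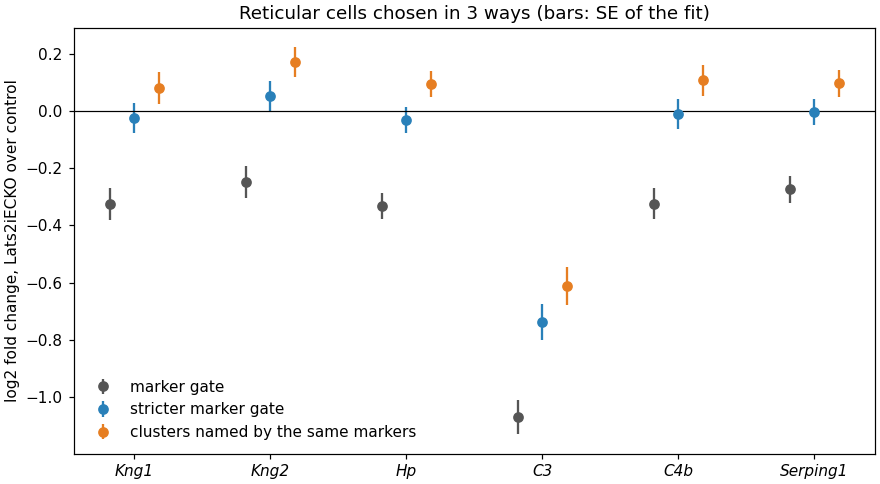
Log2 fold change, Lats2iECKO over control, of 6 members in reticular cells chosen by the marker gate (grey), a stricter marker gate (blue) and clusters named by the same markers (orange); bars give the SE of the fit. C3 lay between -1.07 and -0.61 in all 3, while the other 5 genes moved from below 0 to about 0 or above it.

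When gated reticular cells were divided into terciles of their reticular marker score, the lowest held 284 of 604 and 340 of 755 cells of mutants, but 530 of 1804 and 475 of 1723 cells of controls. In the lowest tercile *Hp* was at 1315 and 1112 CPM in mutants against 3214 and 3342 in controls. *Lepr*, itself a gating marker, was 476 and 523 against 1318 and 1339 CPM there. In the highest tercile *Hp* was at 5764 and 5530 CPM in mutants against 5331 and 5349 in controls, and the summed kininogens were 1214 and 1166 against 1038 and 1048. *C3* remained lower in the middle tercile (144 and 169 against 240 and 258 CPM) and in the highest (147 and 145 against 214 and 220). The terciles were added after the values had been seen.

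**Figure D3:**
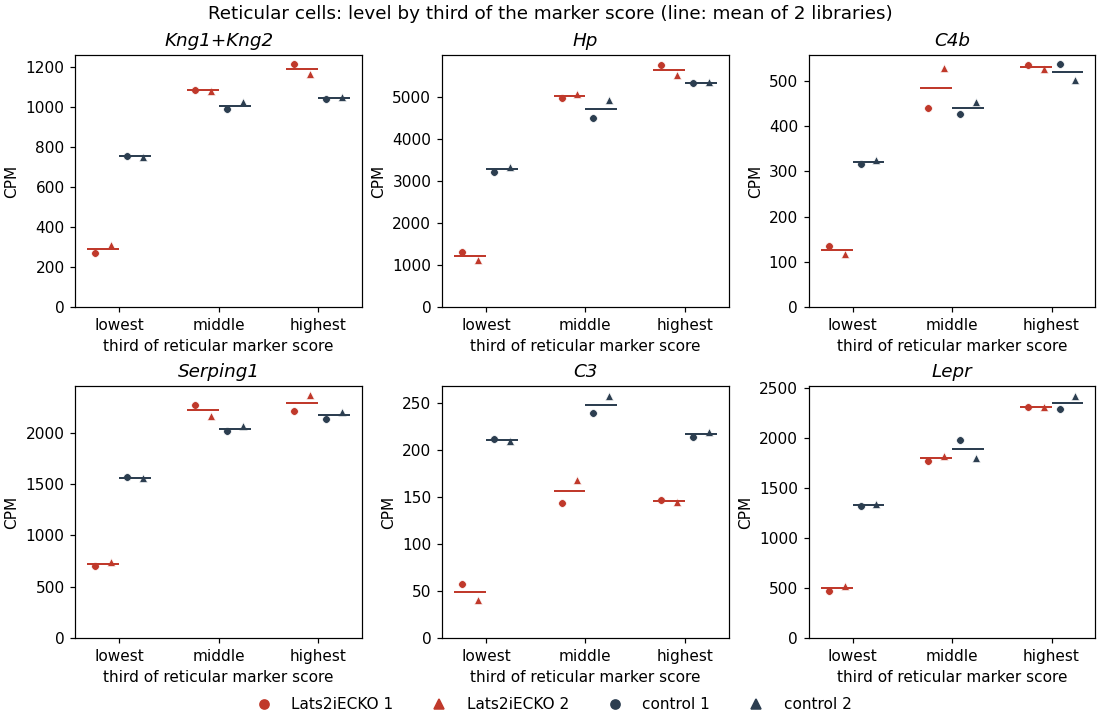
Level (CPM) of members and of *Lepr* in gated reticular cells by tercile of the reticular marker score, with a point for each library and a line at the mean of 2. In the lowest tercile all 6 panels show both mutant libraries below both controls, and in the middle and highest terciles C3 alone does.

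Of 309 gated reticular cells in a cluster that the markers did not name, 134 and 161 were of mutants and 9 and 5 of controls. That cluster was led by *Mmp9*, *Mmp13* and *Tnfsf11*, genes of matrix breakdown and osteoclast formation, with no reticular marker among its 10 leading genes. *Hp* averaged 79.2 CPM in these cells, *Serping1* 167 and *C3* 1.33. In the largest reticular cluster (4112 gated cells), *Hp* averaged 4808 CPM, *Serping1* 2072 and *C3* 222. Another 52 gated cells, all of mutants, fell in a smooth muscle cluster and had *Serping1* at 869 and *Hp* at 113 CPM. The gate thus joined cells of unlike expression, more of them in mutants, and values for the whole gate are not levels of one cell type.

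Shares of cells gave the same picture. *Hp* was detected in 76.5% and 75.9% of gated reticular cells of mutants and in 96.8% and 97.3% of those of controls. At a fixed depth of 2000 UMIs a cell, these shares were 72.1% and 72.0% against 94.9% and 95.0%. In leukocytes, which should lack kininogen, *Hp* was detected in 15.6% to 22.0% of cells and kininogens in 1.69% to 8.44%, and in endothelial cells *Hp* in 3.8% to 9.62%. The median depth was 5701 to 6143 UMIs in reticular cells, 8528 to 10496 in leukocytes and 5274 to 6814 in endothelial cells. No member was detected in 11.1% and 9.93% of gated reticular cells of mutants and in 0.277% and 0.29% of those of controls. Kininogen was found in 87.9% to 95.8% of the reticular cells with *Hp*. In reticular cells without *Hp* it was found in 19.0% and 17.6% of those of mutants (142 and 182 cells) and in 63.8% and 61.7% of those of controls (58 and 47 cells).

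Among all genes at 10 CPM or more on average, the patterns most like *Kng1* over 36 class and library sums were those of *Kng2* (Pearson r = 0.98), *Hp* (0.958) and *Adipoq* (0.949), which encodes adiponectin. For *Hp* they were *Kng1*, *Dpep1* (0.952) and *Kng2*. *Serping1* was most like *Igfbp5* (0.942), *Rarres2* (0.939) and *Fst* (0.933). *C4b* was most like *Cobl* (0.904), *Serpina3n* (0.89) and *Epb41l4b* (0.873), and *C3* like *Rbpj* (0.881), *Scara5* (0.871) and *Hspa5* (0.859). *Lcn2* was most like *Csgalnact2* (0.868), *Alox12* (0.861) and *Itgb7* (0.836). Sums of one library share its depth and free RNA, and these correlations are descriptions.

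In stromal cells, gated by markers of metaphyseal (Osteo-CAR-like) cells, *Serping1* was at 161 and 189 CPM in mutants against 385 and 396 in controls. *Hp* was 101 and 74.8 against 225 and 195 CPM, *C4b* 27.1 and 19.8 against 53.1 and 53.9, and *C3* 3.67 and 3.2 against 22.0 and 19.9. All members but *Lcn2*, 6 of 7, were lower in mutants without overlap, beside 32.4% of features in this class. Here too the gate mattered. With the stricter gate, which left 60 and 70 cells of mutants, *Hp* (200 and 74.0 against 150 and 175 CPM) and *C4b* (51.9 and 17.7 against 40.8 and 57.9) overlapped, while *Serping1* did not (238 and 202 against 352 and 426). In clusters named by the same markers, with 63 and 85 cells of mutants in place of 156 and 194 by the gate, *Serping1* was at 321 and 352 against 441 and 481 CPM and *Hp* at 296 and 256 against 323 and 400. The log2 fold changes of *Serping1*, *Hp* and *C4b* were -1.07, -1.18 and -1.12 with the gate and -0.41, -0.36 and -0.29 with the clusters. With the gate, *Hp* (found in 17.4% of cells of mutants and 49.8% of controls) and *C4b* (10.9% and 22.2%) passed the 20% filter through controls alone. Markers of other cell types differed in the gated cells as well. Summed reticular markers were 1679 and 1880 CPM in mutants and 3566 and 3515 in controls, and the 7 chondrocyte markers 2537 and 2210 against 345 and 783. Among the latter *Col2a1*, the main collagen of cartilage, was at 1860 and 1502 against 170 and 458 CPM and *Acan* (aggrecan) at 258 and 296 against 47.8 and 75.4. The 7 osteoblast markers summed to 3673 and 6071 against 6434 and 6096 CPM, with *Bglap* (osteocalcin) at 427 and 503 against 2056 and 2017. Of the gated stromal cells, 77 and 78 of mutants and 12 and 7 of controls fell in the unnamed cluster led by *Mmp9*. There *Hp* averaged 12.2 CPM, *C4b* 11.7 and *Serping1* 110. In gated cells of the stromal cluster, *Hp* (278 and 178 against 225 and 202 CPM) and *C4b* (57.7 and 33.3 against 52.7 and 56.3) overlapped. *Serping1* did not (282 and 326 against 387 and 419). The part of cells of other types in the stromal values was not tested.

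*C4b* had the highest level of the 7 members in chondrocytes. It was at 150 and 164 CPM in mutants against 243 and 247 in controls, 1.56-fold lower. *Hp* was at 11.9 and 11.4 against 41.9 and 59.1 CPM and *Serping1* at 5.68 and 8.27 against 16.5 and 17.2. The estimated share of free RNA would give 30.8% of this *Hp* level in mutants and 24.4% in controls. For *Serping1* it would give 25.2% and 28.3%, and for *Kng1* and *Kng2* 34% to 49.6%. The part of free RNA in these differences was not tested. Across chondrocyte clusters the difference was uneven. It turned in gated cells of a cluster that the markers did not name, led by *Serpina1e*, *Cytl1* and *Cilp*. There *C4b* was at 370.5 and 257.6 CPM in mutants against 182.6 and 198.6 in controls. In cells led by *Serpina1a* and *Epyc*, *C4b* was at 329 and 316 CPM in mutants against 332 and 329 in controls. In cells led by *Msmp*, *Frzb* and *Chil1* it was 174 and 222 against 288 and 282. A cluster led by *Ptgs2*, *Pde11a* and *Col10a1* had 594 and 591 cells of mutants and 0 and 2 of controls, with *C4b* at 62.6 and 78.6 CPM in mutants. Another, led by *Panx3*, *F13a1* and *Pcolce2*, had 251 and 253 cells of mutants and 272 and 267 of controls. There *C4b* was 35.8 and 44.9 against 64.7 and 66.9 CPM. Both had *Col10a1* and *Ihh*, known for hypertrophic and prehypertrophic cells, among their leading genes. *C3* and *Lcn2* were low but higher in mutants, at 7.6 and 6.82 against 3.36 and 3.25 CPM and at 7.3 and 8.24 against 1.24 and 3.25. In the cells led by *Msmp*, *C3* was at 25.8 and 23.1 against 13.2 and 11.1 CPM and *Lcn2* at 22.7 and 24.3 against 7.1 and 15.1. In chondrocytes 5 members were lower without overlap, beside 37.1% of features. The choice of the members used this contrast in stromal, endothelial and chondrocyte cells too, and nothing is read from such counts.

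In endothelial cells, where *Lats2* was targeted, no member passed the filter on low values. *Serping1* was at 31.2 and 40.6 CPM in mutants against 19.9 and 28.1 in controls, and *Lcn2* 2.78 and 2.34 against 0.338 and 1.23. Cells with *Stab2*, a gene of sinusoidal endothelium, were 113 of 527 and 141 of 666 endothelial cells in mutants and 329 of 819 and 310 of 811 in controls. *Serping1* was at 36.9 and 72.4 against 12.5 and 22.7 CPM in cells with *Stab2*, and at 29.3 and 28.7 against 27.1 and 33.7, which overlapped, in those without it. *Kng1*, *Kng2* and *Hp*, 3 of 7, were lower without overlap, beside 36.5% of features. The estimated share of free RNA would give 50.8% of the *Hp* level in endothelial cells of controls and 22% of that in mutants. RNA of empty droplets was itself richer in these transcripts in controls, with *Hp* at 608 and 566 CPM against 253 and 345 in mutants. The part of free RNA in the difference of *Hp* was not tested.

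Tests were made in the 3 classes outside the choice of the members. In smooth muscle cells *Serping1* was at 765 and 835 CPM in mutants against 378 and 423 in controls. It was the only member that passed the filter on low values, and it rose (log2 fold change 1.02 ± 0.0789 SE, adjusted p = 3.58e-08, edgeR quasi-likelihood test), where 44.7% of the 4977 genes tested in this class were called. In fibroblasts *C4b* was 93.9 and 119 against 193 and 157 CPM and fell by 0.65 on the log2 scale (adjusted p = 0.0138, edgeR). *Serping1* was 221 and 212 against 299.9 and 366 CPM and fell by 0.56 (adjusted p = 0.0146, edgeR). In this class 4.38% of 5864 genes were called. The call of *C4b* was lost without either control library (adjusted p = 0.275 and 0.0705, edgeR), with the stricter gate (0.074) and with at least 2000 UMIs a cell and at most 10% mitochondrial counts (0.0613). That of *Serping1* was lost without control replicate 2 (adjusted p = 0.204, edgeR) and with the stricter gate, where it was -0.31 on the log2 scale (0.199). *C3* was at 42.3 and 55.7 CPM in mutants against 97.4 and 141 in controls. It was found in 17.9% of fibroblasts of mutants and 22% of those of controls, so it passed the filter, set at 20% of the cells of either genotype, through controls alone, and its test is not used. Summed chondrocyte markers in fibroblasts were 2712 and 3719 CPM in mutants and 2058 and 2034 in controls, with *Col2a1* at 1110 and 2308 against 744 and 694 and *Acan* at 840 and 638 against 662 and 712. The genes highest in the fibroblast class relative to the others were *Angptl7* and *Msmp*, the latter also leading a chondrocyte cluster. Of the gated fibroblasts, 885 fell in fibroblast clusters, 129 in chondrocyte clusters and 201 in clusters that the markers did not name. The part of cells of other types in the fibroblast values was not tested. In osteoblasts *Serping1* was at 28.5 and 35.6 CPM in mutants against 23.7 and 25.2 in controls. There it passed the filter through mutants alone (20.8% of cells against 18.4%), so its test is not used either.

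**Figure D4:**
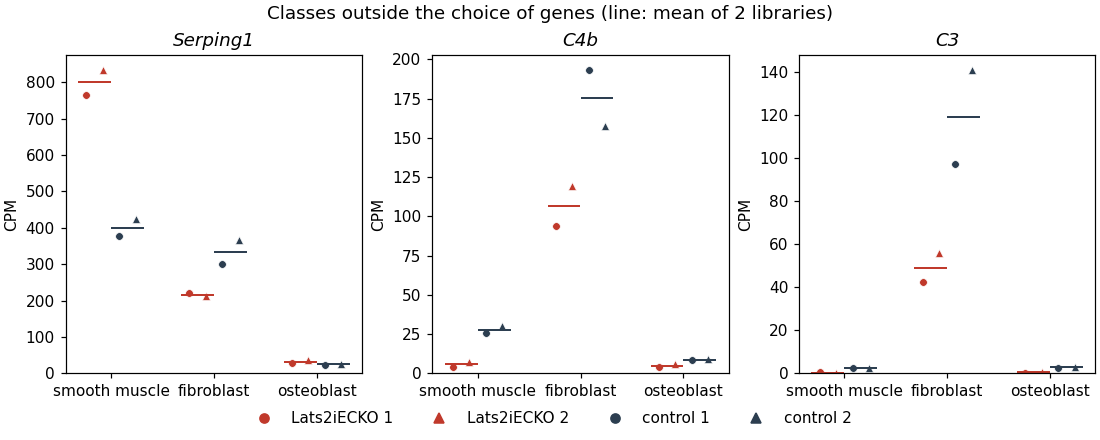
Level (CPM) of Serping1, C4b and C3 in smooth muscle cells, fibroblasts and osteoblasts, with a point for each library and a line at the mean of 2. Serping1 was higher in mutants in smooth muscle cells and lower in fibroblasts, where C4b and C3 were lower as well.

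The opposite directions of *Serping1* in smooth muscle cells and fibroblasts were compared in one fit, added after the values had been seen. The genotype effects differed by 1.56 ± 0.119 (log2, SE, adjusted p = 2.37e-04, edgeR), where 12.3% of 6494 genes differed between the classes. *C4b* was at 4.03 and 7.41 CPM in smooth muscle cells of mutants and 25.5 and 30.1 in those of controls, and with *C3* did not pass the filter in this class, so no difference between the classes is given for them.

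The make-up of the smooth muscle class differed between the genotypes, and *Serping1* also differed within some parts of it. A cluster led by *Tmem273*, *Cyp26b1* and *Cygb*, with *Rgs5* among its leading genes, held 169 and 186 cells of mutants and 20 and 19 of controls, and had *Serping1* at 1104 and 1250 against 506 and 764 CPM. The cluster led by *Myh11* and *Acta2*, contractile genes of mature smooth muscle, held 195 and 210 against 258 and 267 cells. In it *Serping1* was at 405 and 387 CPM in mutants against 369 and 405 in controls, which overlapped. Divided instead by detection of *Myh11*, cells with it had *Serping1* at 502 and 568 against 376 and 409 CPM. Cells without it numbered 135 and 147 in mutants and 2 and 8 in controls, and had 1142 and 1241 CPM in mutants. This was 1 of 6 divisions of classes by a single gene that were looked at after the values had been seen. The others divided smooth muscle cells by *Rgs5*, chondrocytes by *Col10a1* and by *Prg4*, fibroblasts by *Pi16* and endothelial cells by *Stab2*. Smooth muscle cells with *Rgs5* had *Serping1* at 862 and 977 CPM in mutants against 459 and 494 in controls. Those without it had 393 and 318 against 235 and 288 CPM.

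Among fibroblasts, the cluster led by *Clec3b*, *Dpt* and *Col14a1* held 61 and 83 cells of mutants and 89 and 93 of controls. There *Serping1* was 641 and 631 against 958 and 1243 CPM, *C4b* 198 and 280 against 556 and 562, and *C3* 78.1 and 139 against 276 and 496. In the cluster led by *Npy* and *Angptl7*, *C3* was 43.8 and 44.5 against 44.5 and 49.0 CPM, *Serping1* 135 and 136 against 117 and 151, and *C4b* 28.6 and 42.8 against 45.1 and 6.82, all overlapping. *Lcn2* was higher there, at 37.1 and 30.8 against 13.6 and 13.1 CPM. Over the whole fibroblast class *Lcn2* was at 29.1 and 27.6 CPM in mutants against 20.2 and 15.9 in controls, too few cells having it for the test. In leukocytes it was 22.2 and 35.3 against 128 and 180 CPM, where summed neutrophil genes were 17.1 and 650 against 4514 and 6511.

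Genes of the same pathways, taken from 4 lists, were tested in all 7 classes. Of the transcription and cytokine inputs of the acute-phase response, *Cebpd* rose in 7 of 7 classes, and *Cebpb*, *Socs3*, *Nfkbia* and *Nfkbiz* in 6 of 7. The call of *Cebpd* in fibroblasts (log2 fold change 0.39, adjusted p = 0.0338, edgeR) was lost with DESeq2 (0.257), with the stricter gate (0.0634, edgeR) and without either control library (0.279 and 0.241, edgeR). *Cebpb* and *Cebpd* encode C/EBP factors, *Socs3* the feedback inhibitor of STAT3, and *Nfkbia* and *Nfkbiz* regulators of NF-kB. *Cebpb* in reticular cells had a log2 fold change of 1.22 ± 0.112 (SE, adjusted p = 1.33e-05, edgeR), in smooth muscle cells of 2.06 and in chondrocytes of 2.08. *Socs3* rose by 2.06 in osteoblasts, 1.61 in stromal and 1.24 in endothelial cells. Of the receptors, *Lifr* fell in 4 of 7 classes (-0.67 in reticular cells, -1.23 in smooth muscle cells) and *Il6st*, the shared receptor chain gp130, in 3 of 7. The call of *Lifr* in stromal cells was lost with the clusters (adjusted p = 0.329, edgeR). *Il1r1*, the interleukin 1 receptor, fell in reticular cells (-0.71) and rose in endothelial cells (0.41). *Osmr*, the oncostatin M receptor, fell in reticular cells (-0.38) and rose in chondrocytes (0.31), where *Ifngr1* rose as well (0.35). In reticular cells 8 of 18 tested inputs were higher and 7 lower, where 53.1% of all 5132 genes tested were called. In endothelial cells 10 of 19 were higher and 3 lower (background 60.3%), in chondrocytes 11 of 17 higher and 1 lower (64.4%), and in stromal cells 7 of 17 higher and 4 lower (28.5%). In osteoblasts 7 of 15 were higher and none lower (11.1%), in smooth muscle cells 8 of 16 higher and 1 lower (44.7%), and in fibroblasts 1 of 16 higher and 2 lower (4.38%).

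Of 25 other complement genes, 8 were tested in reticular cells, of which 6 fell and none rose, where 25.6% of all genes tested in this class fell and 27.5% rose. *C6*, a component of the membrane attack complex, was 18.9 and 19.4 CPM in mutants and 107 and 96.5 in controls, lower by 2.33 on the log2 scale. With so few counts in mutants, *C6* passed the filter on low values through controls alone. Its test is therefore not used, though the 6 genes that fell include it. *C2*, the protease that joins C4b in the C3 convertase, was 48.6 and 52.5 against 152 and 154 CPM and fell by 1.51. The protease gene *C1s1* fell by 0.39. *Clu* (clusterin), *C1ra* and *Colec12* fell by 0.30, 0.21 and 0.19. These are values of the whole reticular gate, which joined cells of unlike expression. Among the members, falls of similar size shrank or turned with the stricter gate or the clusters. Values under those alternatives are not given for *Clu*, *C1ra* and *Colec12*. In endothelial cells, where 30.0% of genes rose and 30.3% fell, *Clu* (clusterin) and *Cd59a* rose by 1.42 and 1.15, and *Colec12* and *Cd55* fell. *Cfb* was higher by 1.12 on the log2 scale in these cells. With so few counts in controls, *Cfb* passed the filter on low values through mutants alone. Its test is therefore not used, though the pathway genes called in endothelial cells include it. In chondrocytes all 3 tested genes rose, *Clu* by 0.65, *Colec12* by 0.28 and *Cr1l* by 0.17, where 32.1% of genes tested in this class rose. The call of *Cr1l* was lost with DESeq2 (adjusted p = 0.0888), with filterByExpr alone (0.0601, edgeR), with no filter (0.144, edgeR) and without mutant replicate 1 (0.0834, edgeR) or control replicate 1 (0.117, edgeR). In smooth muscle cells, where 22.1% of genes rose and 22.6% fell, *Colec12* rose by 2.01, and the other 4 of 6 beside it and *Clu* did not pass. *Clu* was at 64.2 and 64.9 CPM in smooth muscle cells of mutants against 90.5 and 179 in controls and fell by 1.05, or by 0.459 without control replicate 2. Its call was lost with DESeq2 (adjusted p = 0.0978), with the clusters (0.153, edgeR) and with the top 5% of UMIs left out (0.0925, edgeR).

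Of 28 other acute-phase genes, 8 were tested in reticular cells. *Serpina3n*, a protease inhibitor, fell by 0.70, *Lbp*, which binds lipopolysaccharide, by 0.64, and *Cp* (ceruloplasmin) by 0.41. The metallothioneins *Mt1* and *Mt2* rose by 0.60 and 0.51 there, or by 0.36 and 0.28 without mutant replicate 1. With the clusters the calls of *Cp* (-0.13, adjusted p = 0.0532, edgeR) and *Mt1* (0.15, adjusted p = 0.0503, edgeR) were lost, and with the top 5% of UMIs left out that of *Mt2* (0.29, adjusted p = 0.0569, edgeR). *Mt1* rose by 2.18 in stromal cells, 2.21 in chondrocytes and 1.79 in smooth muscle cells. In fibroblasts *Mt1* and *Mt2* fell by 0.91 and 1.23. *Cp* rose by 1.31 in chondrocytes and 0.62 in endothelial cells. In stromal cells *Cp* was at 432 and 444 CPM in mutants against 1096 and 1002 in controls and fell by 1.18 (adjusted p = 6.01e-09, edgeR), a call lost with the clusters (log2 fold change -0.06). None of 4 tested genes passed in osteoblasts, where 11.1% of genes were called. The liver genes measured beside them, among them *Alb* and *Ttr*, summed to 1.19 to 2.67 CPM in reticular cells.

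Few of the 14 genes of the kallikrein-kinin system were expressed widely enough to test, 1 to 3 a class. *Mme*, encoding the kinin-degrading peptidase neprilysin, was 278 and 293 CPM in reticular cells of mutants and 428 and 436 in those of controls and fell by 0.52 on the log2 scale (adjusted p = 3.45e-05, edgeR). *Ace*, whose product also cleaves kinins, was 111 and 106 CPM in endothelial cells of mutants against 49.7 and 49.9 in controls and rose by 1.19 (adjusted p = 4.98e-08, edgeR). The part in it of the different shares of cells with *Stab2* in the 2 genotypes was not tested. *Prcp* fell in stromal and endothelial cells by 0.96 and 0.70, and the call in stromal cells was lost with the stricter gate and with the clusters.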

How the data were processed

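The 4 libraries (10x Genomics droplets) were deposited as unfiltered matrices. According to the study's methods and the submitters' processing notes, the authors trimmed reads with cutadapt 3.5, aligned them to mm39 with STARsolo 2.7.10a and a GENCODE annotation extended by transgenes, counted UMIs over exons and introns, and shared reads of several genes by expectation maximization. The deposited values are therefore expected counts, not normalized, and 9.09% to 9.95% of entries were not whole.

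Barcodes with at least 1000 UMIs, 800 genes, at most 15% mitochondrial and 5% hemoglobin counts were kept. A class was assigned by the highest score of a marker list (at least 2 markers, score at least 0.2, lead at least 0.1). These thresholds were set after score distributions and cell numbers per library, but no member's level by genotype, had been seen under 4 sets of thresholds. No doublet caller was run. The expected counts of a class were added up within each library, rounded to whole numbers and tested with edgeR 4.0.16 (quasi-likelihood, TMM, genes with a count in at least 20% of cells of either genotype, Benjamini-Hochberg adjusted p at most 0.05). DESeq2 1.42.0 and 10 other alternatives were tried. Clusters were made with scanpy 1.11.5 (Leiden, resolution 1, members left out of the variable genes). Terciles, clusters within classes, single-gene divisions, promoter motifs and the fit over 2 classes were added after the values had been seen. The test was checked on simulated data. With 2 libraries a group an exact permutation test cannot go below p = 0.333, so none was run.

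The members and the gene lists were chosen with earlier results of these data known, and 1 gene of the complement list is not reported here. All 7 members were named. Of each list and class, up to 3 called genes a direction with the largest change and no overlap qualified for naming, and for each member the 3 genes with the most similar pattern. Other genes were named outside this rule. Among them were *Osmr* and *Ifngr1* in chondrocytes, *Osmr*, *Clu*, *C1ra* and *Colec12* in reticular cells and *Il1r1* in endothelial cells. In those classes their dependence on the processing was not followed. Genes that lead a cluster were picked with their values in view. Positions follow GENCODE M39.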

Additional observations from a re-analysis of the deposited data

Results flagged for a closer look

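One result was singled out because the effect of genotype differed between 2 classes in a test of the difference itself (edgeR, adjusted over 6494 genes, of which 12.3% differed). For *Serping1* the effect in smooth muscle cells minus that in fibroblasts was 1.56 (log2), the level being higher in both mutant libraries in smooth muscle cells and lower in both in fibroblasts. The *Rgs5* cluster held 169 and 186 smooth muscle cells of mutants and 20 and 19 of controls. Its cells had higher *Serping1* than those of the *Myh11* cluster in both genotypes. The part of this shift in cells in the difference was not tested. The fit was added after the opposite directions had been seen, and it was run with the main settings only. In the fit of fibroblasts alone, *Serping1* lost its call with the stricter gate (log2 fold change -0.31). Groups of 2 libraries are too small to test for outlying samples.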

How the results depend on the processing

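Pathway genes called moved by over 1.5 times from 18 of 29 tested to 7 of 29 with the stricter gate and 8 of 31 with the clusters in stromal cells, from 22 of 30 to 34 of 50 with filterByExpr alone and 35 of 75 with no filter in endothelial cells, from 21 of 27 to 35 of 59 and 32 of 83 in chondrocytes, from 13 of 26 to 22 of 44 and 24 of 69 in smooth muscle cells, and in fibroblasts from 5 of 28 to 3 of 28 with DESeq2, 8 of 28 with the clusters and 11 of 74 with no filter (2 to 10 with 1 library left out). Leaving out 1 library gave log2 fold changes of -1.47 to -0.91 for *C3*, -0.83 to -0.50 for *C4b* and -0.71 to -0.40 for *Serping1* in fibroblasts, and 0.20 to 0.52 for *Serping1* in osteoblasts (0.54 with free RNA subtracted). *C3* in fibroblasts and *Serping1* in osteoblasts had entered the test through 1 genotype alone, and their tests are not used. In fibroblasts *C4b* lost its call with the stricter gate (-0.68) and with at least 2000 UMIs and at most 10% mitochondrial counts (-0.56), and *Serping1* with the stricter gate (-0.31). *Serping1* in smooth muscle cells kept its call in all alternatives run (0.93 to 1.11 with 1 library left out).

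Direction turned in reticular cells with the clusters for *Kng1* (0.0804), *Kng2* (0.17; 0.0535 with the stricter gate), *Hp* (0.0933), *C4b* (0.108) and *Serping1* (0.096), and in stromal cells for *Clu* (-0.26 with the stricter gate, -0.292 with the clusters) and *Colec12* (0.138, clusters). The alternatives keep different cells, and beyond that the cause was not tested. All genes called in stromal cells fell from 1752 to 377 with the stricter gate, 403 with the clusters and 848 with DESeq2. In fibroblasts they fell from 257 to 113 with DESeq2 and rose to 461 with the clusters. In fibroblasts and osteoblasts they fell without either control library and rose without either mutant library. The class shares of 4.38% and 11.1% given above as background therefore depend on the libraries used. A replicate block gave 356 calls in fibroblasts and 2653 in reticular cells. The difference between replicates 1 and 2, taken gene by gene in log CPM, correlated between mutants and controls at -0.0592 to 0.0719 over the classes. The numbers were therefore not taken as pairs, and the block changed the call of no member tested. Intervals from counts were not used, and 2 libraries a group limit every p-value.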
